A study of Mus musculus with 20 samples.

Results

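The 10 genes described here encode neuropeptide receptors (Galr1, Vipr1, Vipr2, Adcyap1r1, Hcrtr2), a receptor that works only with accessory subunits (Calcrl) and those subunits (Ramp1, Ramp2, Ramp3), and 1 neuropeptide (Nts). They were picked by gene symbol from a table of 24411 genes, with earlier results of the same libraries known, and all 10 had enough counts to be tested among 15284 genes. RNA was sequenced from cultured mouse cerebellar granule neurons, the small glutamatergic neurons of the cerebellar cortex. The study asked whether the enzymatic domain of Kdm6b, a demethylase that removes repressive methyl marks from lysine residues of histone H3, restores expression after knockdown of the gene.

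The 4 groups held 5 libraries each, numbered 1 to 5. In shKDM6B Cat Rescue cultures, an shRNA against mouse Kdm6b was combined with the enzymatic domain of human Kdm6b in its active form. In shKDM6B dCat Rescue cultures the domain was the dead form. The shKDM6B cultures received only the shRNA, and the Control cultures are given by the labels as Control only, with no statement of what they were infected with. Viruses were added on the first day in vitro, the antimitotic AraC on the second, and RNA was taken on the seventh, per the study's design text. The shRNA, the domain constructs and the promoters that drive them are not described further in the labels. Nothing in the labels states that the 5 libraries of a group are separate cultures or animals, so tests measure only the spread between these libraries.

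Neuropeptides are cut from larger precursors, packed into dense-core vesicles and released to act on G protein-coupled receptors, often at a distance from the synapse. Adcyap1r1 is the receptor selective for PACAP, while Vipr1 and Vipr2 bind both VIP and PACAP, and all 3 couple mainly to Gs and raise cyclic AMP. Galr1 binds galanin and couples to Gi, which lowers cyclic AMP, and Hcrtr2 binds both orexins and couples mainly to Gq. Calcrl forms a CGRP receptor with Ramp1 and adrenomedullin receptors with Ramp2 or Ramp3. PACAP acting through Adcyap1r1 is known to promote the survival of cultured cerebellar granule neurons.

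The stretches of DNA just upstream of the start are shown for 4 of the genes that differed between shKDM6B and Control cultures, 2 higher (Adcyap1r1, Nts) and 2 lower (Vipr1, Ramp3). They come from RefSeq on GRCm38.p6, the build that mm10 names, and hold the bases before the start in both RefSeq and GENCODE vM21, read 5′ to 3′ on the gene's strand. Capitals mark 3 kinds of motif searched on both strands: the half-site of the cyclic AMP response element (TGACG or CGTCA), the AP-1 site (TGAGTCA or TGACTCA) and the GC box (GGGCGG or CCGCCC). The positions are chr6:55451728-55451977 on the plus strand for Adcyap1r1, chr9:121642466-121642715 on the plus strand for Vipr1, chr10:102490487-102490668 on the minus strand for Nts and chr11:6658283-6658520 on the plus strand for Ramp3.
Adcyap1r1: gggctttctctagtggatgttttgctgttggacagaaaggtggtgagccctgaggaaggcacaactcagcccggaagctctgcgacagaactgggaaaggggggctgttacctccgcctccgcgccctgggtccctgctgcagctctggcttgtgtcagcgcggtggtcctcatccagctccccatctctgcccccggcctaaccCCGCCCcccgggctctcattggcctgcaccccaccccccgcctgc
Nts: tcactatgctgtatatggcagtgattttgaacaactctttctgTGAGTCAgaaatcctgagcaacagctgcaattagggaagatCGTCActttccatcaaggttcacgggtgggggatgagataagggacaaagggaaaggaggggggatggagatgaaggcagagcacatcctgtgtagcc
Vipr1: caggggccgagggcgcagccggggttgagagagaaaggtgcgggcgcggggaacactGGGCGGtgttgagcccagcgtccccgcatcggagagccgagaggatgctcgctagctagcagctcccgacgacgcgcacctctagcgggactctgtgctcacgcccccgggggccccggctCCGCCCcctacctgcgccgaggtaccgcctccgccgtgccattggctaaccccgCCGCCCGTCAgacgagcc
Ramp3: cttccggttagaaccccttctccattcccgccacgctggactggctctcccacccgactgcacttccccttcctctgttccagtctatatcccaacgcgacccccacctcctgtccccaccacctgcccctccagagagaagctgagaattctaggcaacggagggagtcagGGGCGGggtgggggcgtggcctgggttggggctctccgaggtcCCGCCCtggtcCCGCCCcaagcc

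The Nts window held 1 AP-1 site and 1 cyclic AMP response half-site and no GC box, whereas the Vipr1 window held 3 GC boxes, the last of which runs into a half-site. The Ramp3 window held 3 GC boxes and the Adcyap1r1 window 1. In windows of 250 bases before 32851 RefSeq starts, the half-site was found in 17.8%, the AP-1 site in 4.46% and the GC box in 32.7%. The same 250-base windows held 30 CpG pairs for Vipr1, 13 for Ramp3, 11 for Adcyap1r1 and 2 for Nts, against a median of 6 over all windows. Of the 10 symbols, 8 matched the promoter table, and Galr1 and Ramp2 did not. A match of letters describes the window and is no evidence that a factor binds it.

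Levels are given as CPM, counts scaled to library size with TMM factors. The libraries held 14200745 to 21179300 estimated counts, so that 1 CPM stood for 15.1 to 21.7 counts. Kdm6b itself lay between 73.2 and 312 CPM in Cat Rescue, 54.9 and 272 CPM in dCat Rescue, 37.9 and 112 CPM in shKDM6B and 81.2 and 187 CPM in Control libraries, and was lower in shKDM6B than in Control in 5 of 5 same-numbered pairs. Whether reads of the human domain add to the mouse Kdm6b counts of the rescues was not tested. Libraries of the same number deviated together from their group means, so fold changes below come from the edgeR fit with the number as a block, which called 632 of 15284 genes, or 4.14%, between shKDM6B and Control cultures at an adjusted p of 0.05 (263 higher, 369 lower). Without the block the same test called 1 gene, 0.00654%.

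In shKDM6B against Control cultures, 6 of the 10 genes were past the threshold with the block and 0 without it. Galr1, Adcyap1r1, Hcrtr2 and Nts were higher and Vipr1 and Ramp3 lower, while Vipr2, Ramp1, Ramp2 and Calcrl were not past it. The genes were chosen with this comparison known, so these counts, and the 1.72% of all genes called higher and 2.41% called lower, are a description, and no p is given for a member. Without shKDM6B library 1 the fit with the block called 414 genes and 4 of the 10, and without shKDM6B library 5 it called 352 genes and 4 of the 10. In bulk RNA, a change in the number of cells that express a gene and a change in the RNA per cell cannot be told apart.

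All 12 markers of the labelled cell type, granule neurons, were detected in each library, which at this depth is no measure of purity. In Control libraries the 10 fibroblast markers summed to between 3913 and 24500 CPM and the 10 astrocyte markers to between 1621 and 9135 CPM. Sums of different lists do not give shares of cells. The lists were made with earlier results known, so the adjusted p-values below are a description. With the block, 6 of the 12 differed between shKDM6B and Control cultures, against 4.14% of all genes and 0 of the 12 without it: Barhl1 (0.98 ± 0.13, adjusted p = 0.000355 by edgeR) and Pax6 rose, and Etv1 (-1.02 ± 0.18, adjusted p = 0.00383), Cbln3, Slc17a7 and Cntn2 fell. Their sum lay between 1196 and 5132 CPM in shKDM6B and between 1916 and 5709 CPM in Control libraries, and was lower in shKDM6B in 5 of 5 same-numbered pairs. Sums of the fibroblast, mural and GABAergic interneuron markers were also lower in 5 of 5 pairs, and that of unipolar brush and nuclear neuron markers was higher in 5 of 5. With the block, 1 of 9 GABAergic interneuron markers rose and 2 fell, 1 of 10 mural and 1 of 10 microglial markers fell, and 0 of 11 endothelial, 10 astrocyte, 10 fibroblast, 9 oligodendrocyte, 6 choroid plexus, 4 Purkinje cell and 6 unipolar brush and nuclear neuron markers passed; without it 0 passed in each list. Of the 10 microglial markers 0 had a positive log2 fold change (median -0.35), and of the 10 fibroblast markers 2 had (median -0.10). The microglial sum, however, was lower in shKDM6B in 3 of 5 pairs and higher in 2. Of the 12 granule neuron markers 4 had a positive value (median -0.31), and of the 4 Purkinje cell markers 0 had (median -0.12). The part of such shifts in the differences of the 10 genes was not tested.

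**Figure D1:**
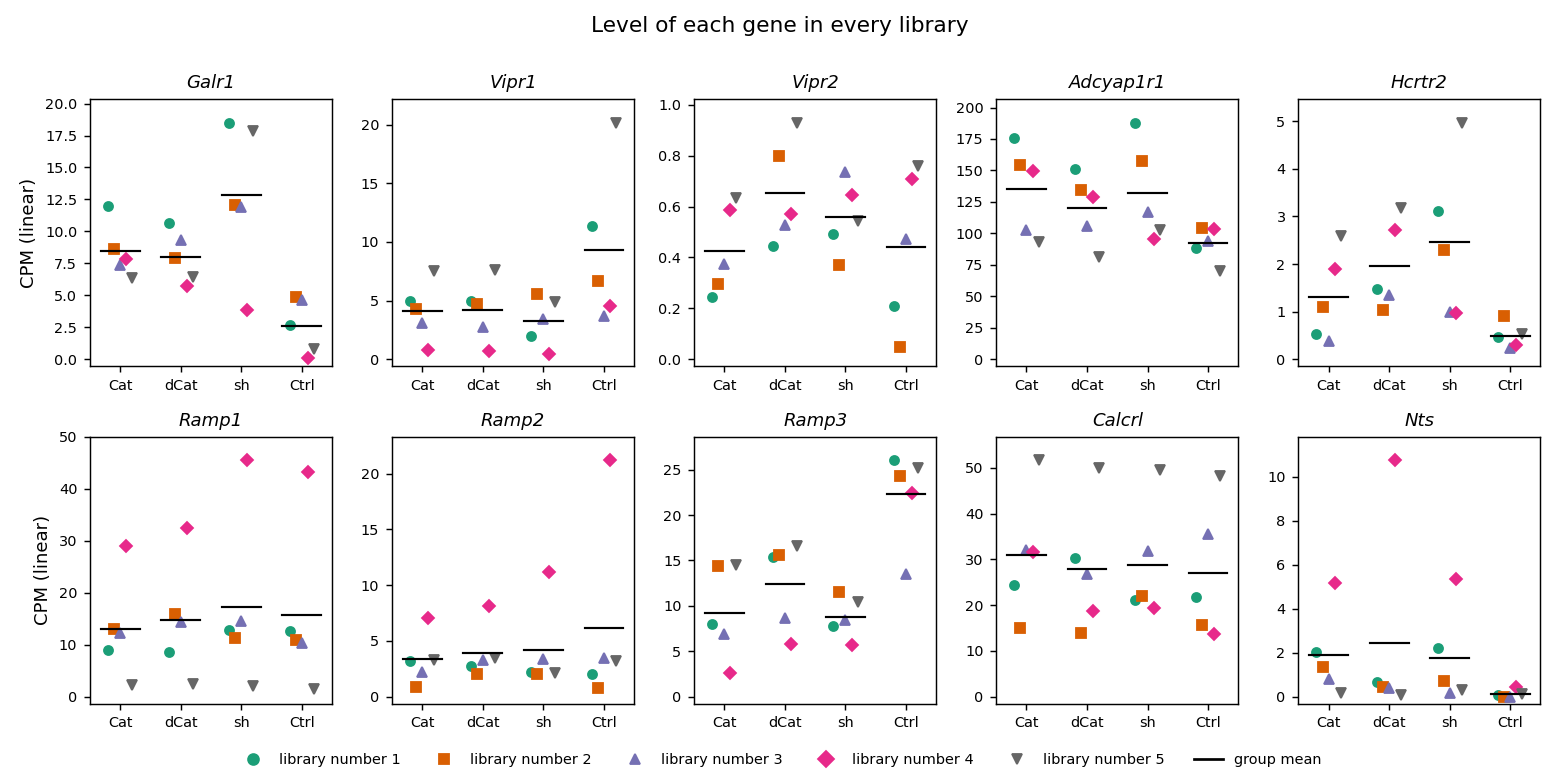
CPM on a linear scale of each of the 10 genes in all 20 libraries, for shKDM6B Cat Rescue (Cat), shKDM6B dCat Rescue (dCat), shKDM6B (sh) and Control (Ctrl) cultures. Symbols mark the library number and black lines the group means; Galr1 is higher and Ramp3 lower in the 3 groups with the shRNA, whereas Ramp1, Ramp2 and Calcrl differ more between library numbers than between groups.

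Galr1, the galanin receptor that couples to Gi, was higher in all 3 groups with the shRNA than in Control cultures. It stood at 12, 8.62, 7.38, 7.86 and 6.39 CPM in Cat Rescue libraries 1 to 5 and at 10.6, 7.94, 9.32, 5.70 and 6.44 CPM in dCat Rescue libraries. It stood at 18.5, 12.1, 11.9, 3.82 and 17.9 CPM in shKDM6B libraries, against 2.67, 4.89, 4.66, 0.118 and 0.817 CPM in Control libraries. Each shRNA library was above the Control library of its number, and shKDM6B library 4, at 3.82 CPM, was the single one of 15 below the highest Control value. The log2 fold change of shKDM6B against Control was 2.36 ± 0.46 (SE), or 5.15-fold, the second largest rise among the 10 genes. Galr1 averaged 8.45 ± 2.14 CPM in Cat Rescue, 8.004 ± 2.03 CPM in dCat Rescue, 12.8 ± 5.92 CPM in shKDM6B and 2.63 ± 2.17 CPM in Control cultures (SD, n = 5 each).

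Hcrtr2, the receptor for both orexins, was low everywhere but higher with the shRNA. Its levels were 0.536, 1.09, 0.374, 1.91 and 2.59 CPM in Cat Rescue and 1.48, 1.03, 1.35, 2.72 and 3.19 CPM in dCat Rescue libraries 1 to 5. They were 3.12, 2.29, 0.982, 0.966 and 4.97 CPM in shKDM6B libraries, against 0.472, 0.899, 0.236, 0.295 and 0.525 CPM in Control libraries. The shKDM6B and Control groups did not overlap, although shKDM6B libraries 3 and 4 lay just above the highest Control library. Against Control, shKDM6B cultures had a log2 fold change of 2.21 ± 0.46, on 223 counts summed over 5 shKDM6B libraries and 45 over 5 Control libraries. The span of an antisense gene, Gm27234, overlaps that of Hcrtr2, and the strandedness of the counting is not given in the sources used here. Whether exons of the 2 genes overlap, so that reads could be assigned to either, was not tested.

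Of the 3 receptors of the VIP and PACAP family, Adcyap1r1 was the most abundant and was slightly higher with the shRNA, Vipr1 was lower, and Vipr2 was near the limit of detection. Adcyap1r1, the PACAP receptor, had 176, 154, 103, 150 and 93.2 CPM in Cat Rescue and 151, 134, 106, 128 and 81.2 CPM in dCat Rescue libraries 1 to 5. It had 188, 158, 117, 95.2 and 103 CPM in shKDM6B libraries, against 88.3, 104, 94.1, 103 and 69.8 CPM in Control libraries. The groups overlap: shKDM6B library 4 was below Control library 4, and the other 4 shKDM6B libraries were above their Control partners. With a log2 fold change of 0.49 ± 0.13, or 1.41-fold, this gene lost its place past the threshold in 7 of the 10 fits that left out 1 shKDM6B or Control library.

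Vipr1, the VIP and PACAP receptor 1, moved the other way. It had 4.93, 4.26, 3.10, 0.781 and 7.48 CPM in Cat Rescue and 4.94, 4.74, 2.76, 0.696 and 7.63 CPM in dCat Rescue libraries 1 to 5. It had 1.97, 5.58, 3.39, 0.460 and 4.84 CPM in shKDM6B libraries, against 11.3, 6.69, 3.72, 4.55 and 20.1 CPM in Control libraries. All 15 libraries with the shRNA lay below the Control library of their number, but the gap was small for number 3 and the groups overlap. In shKDM6B against Control the log2 fold change was -1.57 ± 0.35, which is 0.337 times the Control level. Vipr1 was no longer past the threshold without shKDM6B library 1 or without shKDM6B library 5.

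Vipr2, the VIP and PACAP receptor 2, ranged from 0.244 to 0.633 CPM in Cat Rescue, 0.445 to 0.929 CPM in dCat Rescue, 0.372 to 0.736 CPM in shKDM6B and 0.0499 to 0.759 CPM in Control libraries. Between 1 and 17 counts were assigned to it per library, and its log2 fold change of 0.46 ± 0.41 in shKDM6B against Control was close to its error. An antisense gene, Gm20658, overlaps it.

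Calcrl, the 7-transmembrane partner of the RAMPs, did not separate the groups. It had 24.3, 15.1, 31.98, 31.6 and 51.7 CPM in Cat Rescue and 30.4, 13.8, 26.9, 18.8 and 50.0 CPM in dCat Rescue libraries 1 to 5. It had 21.1, 22.1, 31.9, 19.3 and 49.5 CPM in shKDM6B libraries, against 21.9, 15.7, 35.6, 13.7 and 48.2 CPM in Control libraries. Library 5 was the highest in every group, and the log2 fold change of shKDM6B against Control was 0.15 ± 0.18.

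Of its 3 accessory subunits, Ramp3 was lower with the shRNA and Ramp1 and Ramp2 were not past the threshold. Ramp3 stood at 7.998, 14.4, 6.85, 2.59 and 14.4 CPM in Cat Rescue and 15.4, 15.6, 8.62, 5.82 and 16.6 CPM in dCat Rescue libraries 1 to 5. It stood at 7.77, 11.5, 8.39, 5.71 and 10.4 CPM in shKDM6B libraries, against 26.1, 24.3, 13.5, 22.4 and 25.2 CPM in Control libraries. The highest shKDM6B library was below the lowest Control library, and each library with the shRNA was below the Control library of its number. This made a log2 fold change of -1.39 ± 0.25 in shKDM6B against Control, or 0.381 times the Control level. Ramp3 kept its place past the threshold in all 10 fits that left out 1 library. A pseudogene on the opposite strand, Gm11978, overlaps the Ramp3 gene.

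Ramp1, which makes Calcrl a CGRP receptor, had 8.88, 13.1, 12.2, 29.0 and 2.19 CPM in Cat Rescue and 8.60, 15.9, 14.4, 32.3 and 2.46 CPM in dCat Rescue libraries 1 to 5. It had 12.8, 11.3, 14.5, 45.5 and 1.94 CPM in shKDM6B libraries, against 12.5, 10.9, 10.4, 43.2 and 1.40 CPM in Control libraries. Number 4 was the highest and number 5 the lowest in each group. Between shKDM6B and Control the log2 fold change was 0.18 ± 0.17, although shKDM6B was the higher library in 5 of 5 pairs. Ramp2, the subunit of an adrenomedullin receptor, ran from 7.08 to 21.2 CPM in the 4 libraries numbered 4 and from 0.749 to 3.45 CPM in the other 16. Its log2 fold change was -0.16 ± 0.32 in shKDM6B against Control, and in the fit without the block the value of -0.54 turned to 0.80 without Control library 4. Ramp2 overlaps Vps25 on the same strand.

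Sums of cell type markers also differed between library numbers. The 10 markers of astrocytes and Bergmann glia summed to between 8570 and 9628 CPM in the 4 libraries numbered 4 and to between 1382 and 1832 CPM in those numbered 5, the extremes of Ramp1. The order of the other numbers differed: number 1 had astrocyte sums of 5088 to 5345 CPM and Ramp1 at 8.60 to 12.8 CPM, against 2117 to 3701 CPM and 10.4 to 14.5 CPM for number 3. Ramp2 at 2.04 to 3.22 CPM for number 1 was likewise no higher than at 2.12 to 3.45 CPM for number 5. The 10 markers of fibroblasts and meningeal cells summed to between 18770 and 24500 CPM for number 5, against 3544 to 4155 CPM for number 2. The 12 endothelial markers summed to 179 to 203 CPM for number 5 and to 65.2 to 184 CPM for the others, with the defining markers Cldn5 and Erg at 0 in at least 1 library. The 12 granule neuron markers summed to between 1196 and 2116 CPM for number 4 and to between 3208 and 5709 CPM for the other numbers. Control library 4, the highest for Ramp2, also had the largest sum of the 10 microglial markers, 1758 CPM, against at most 906 CPM in any other library. The part of these cell types in the levels of the 3 genes was not tested.

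**Figure D2:**
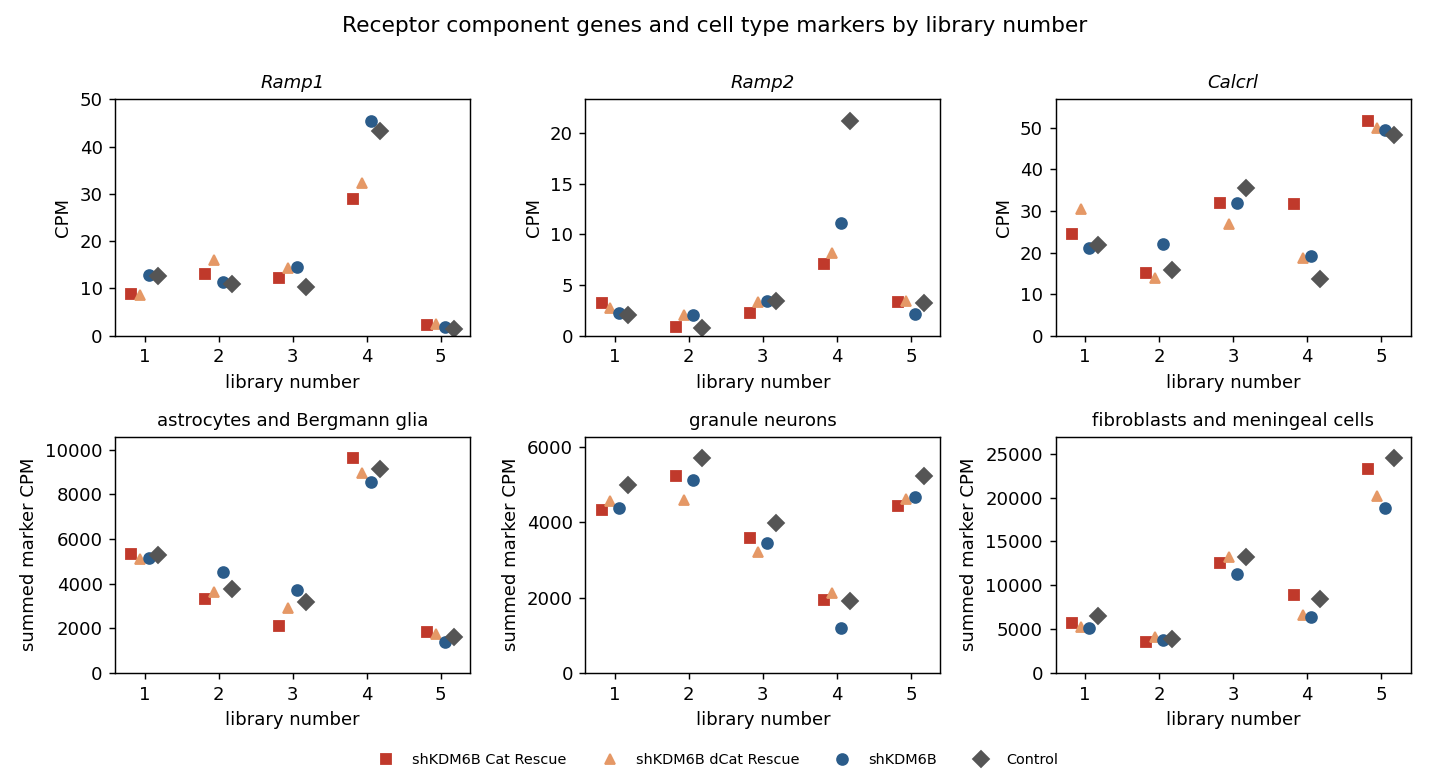
Levels of Ramp1, Ramp2 and Calcrl in CPM (top) and summed CPM of the markers of astrocytes, granule neurons and fibroblasts (bottom) against the library number, with 1 symbol per library and 4 groups per number. Ramp1, Ramp2 and the astrocyte sum are highest in the libraries numbered 4, and Calcrl and the fibroblast sum in those numbered 5, whichever the group.

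Nts, the precursor of neurotensin and neuromedin N, was barely present in Control cultures and had the largest fold change of the 10 genes. It had 2.05, 1.34, 0.802, 5.18 and 0.173 CPM in Cat Rescue and 0.643, 0.423, 0.410, 10.8 and 0.0664 CPM in dCat Rescue libraries 1 to 5. It had 2.19, 0.691, 0.147, 5.34 and 0.303 CPM in shKDM6B libraries, against 0.0524, 0, 0, 0.413 and 0.117 CPM in Control libraries. The libraries numbered 4 were the highest in every group, and shKDM6B libraries 3 and 5 lay below Control library 4, so the groups overlap although each shKDM6B library was above its Control partner. In all, 177 counts were assigned to Nts over the 5 shKDM6B libraries, of which library 4 gave 116. Over the 5 Control libraries 10 counts were assigned, of which library 4 gave 7. The log2 fold change of shKDM6B against Control was 3.95 ± 0.73, and with 2 Control libraries at 0 this fitted value depends on how zeros are handled and is an order of size only. Of the G protein-coupled receptors for neurotensin, Ntsr1 averaged at most 0.071 CPM and Ntsr2 at most 0.965 CPM in any group. Other proteins that bind neurotensin are not described here.

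**Figure D3:**
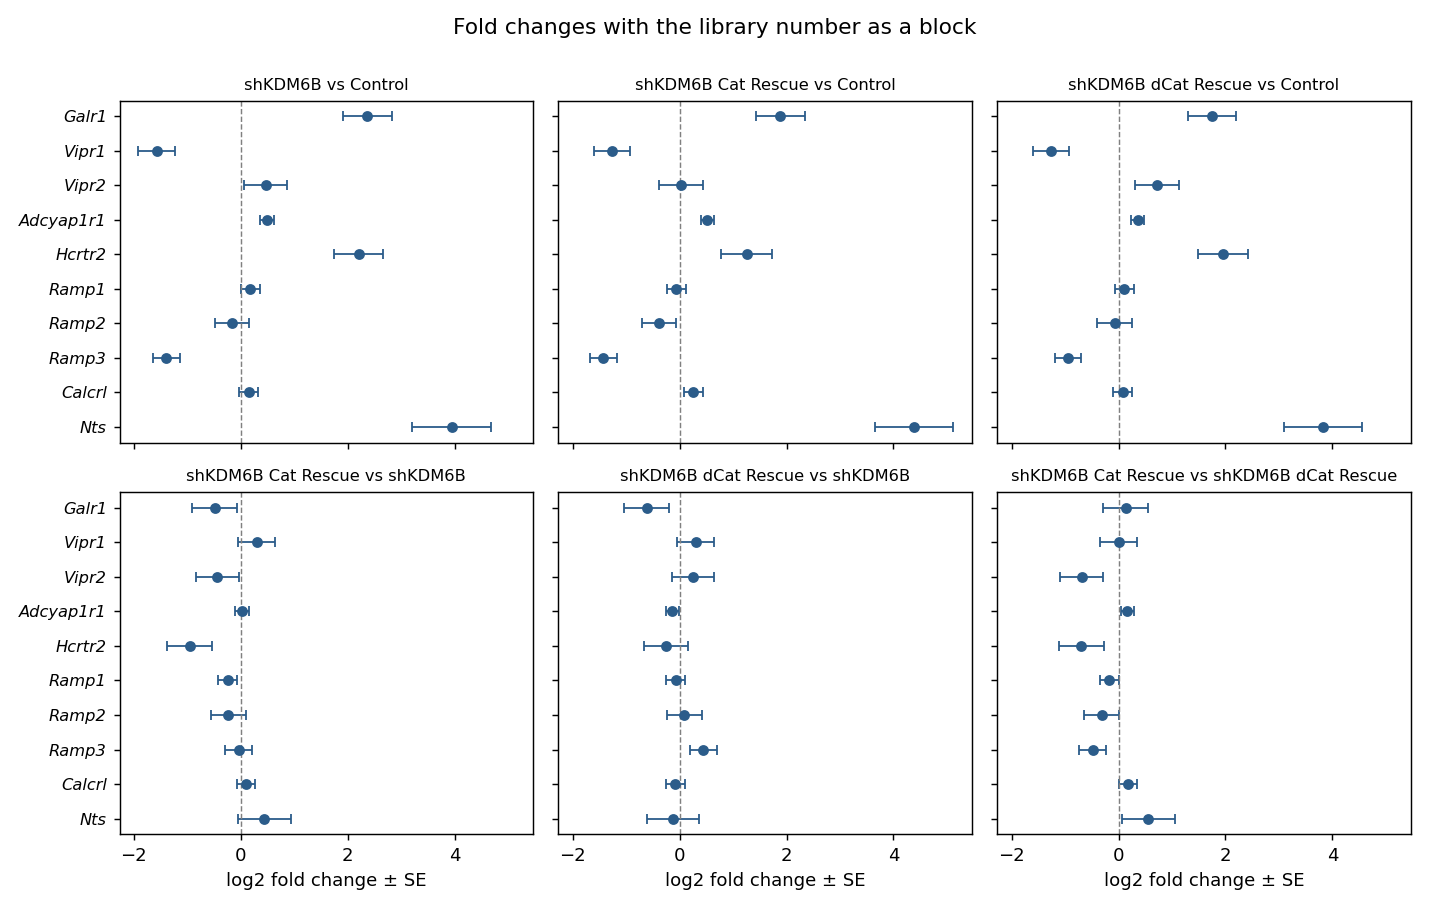
Log2 fold changes (points) with their standard errors (bars) for the 10 genes in 6 comparisons of the 4 groups, from the edgeR fit with the library number as a block. The 3 upper panels share the Control libraries, and Nts, Galr1 and Hcrtr2 lie to the right and Vipr1 and Ramp3 to the left of 0 in each; values in the lower panels lie between -0.95 and 0.56.

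Because transcripts differ in length, levels of different genes were set side by side as CPM per kb of exon. In shKDM6B cultures the order was Adcyap1r1 at 20 ± 5.96, Ramp3 at 6.34 ± 1.64, Calcrl at 5.89 ± 2.58, Ramp1 at 5.69 ± 5.47, Galr1 at 4.30 ± 1.98, Nts at 1.39 ± 1.74, Ramp2 at 1.27 ± 1.19, Vipr1 at 0.560 ± 0.360, Hcrtr2 at 0.400 ± 0.271 and Vipr2 at 0.125 ± 0.0313 CPM per kb (SD, n = 5). Each of these genes but Adcyap1r1 and Vipr2 lay within 1 SD of a neighbour in the order, so most neighbouring places are not separated. In Control cultures Ramp3 came first at 16.1 ± 3.68, next to Adcyap1r1 at 13.9 ± 2.13, from which it did not differ beyond the spread. Calcrl at 5.53 ± 2.99 and Ramp1 at 5.19 ± 5.29 came next, and Ramp2 at 1.86 ± 2.57, Vipr1 at 1.60 ± 1.16 and Galr1 at 0.881 ± 0.726 followed, while Vipr2, Nts and Hcrtr2 were each below 0.1 CPM per kb. Galr1 was thus in the seventh place in Control and in the fifth in shKDM6B cultures. In the Cat and dCat Rescue cultures Adcyap1r1 was first, at 20.5 ± 5.38 and 18.2 ± 4.10 CPM per kb, and Ramp3, Calcrl, Ramp1 and Galr1 took the same places as in shKDM6B cultures.

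The rescue cultures were set against Control cultures as a description only. Galr1 was higher by 1.88 ± 0.46 on the log2 scale in Cat Rescue and by 1.75 ± 0.46 in dCat Rescue cultures, in 5 of 5 pairs each and with no overlap of the groups. Nts was higher by 4.38 ± 0.73 in Cat Rescue, in 5 of 5 pairs, and by 3.82 ± 0.73 in dCat Rescue, in 4 of 5 pairs. Library 4 gave 170 of the 200 Nts counts in dCat Rescue, and both Nts values are an order of size only. Hcrtr2 was higher by 1.25 ± 0.48 in Cat Rescue and 1.95 ± 0.47 in dCat Rescue, and Adcyap1r1 by 0.52 ± 0.13 and 0.36 ± 0.13, in 5 of 5 pairs each. The log2 fold change of Vipr1 was -1.27 ± 0.34 in both rescues, and that of Ramp3 was -1.43 ± 0.25 in Cat Rescue and -0.95 ± 0.25 in dCat Rescue. These comparisons share the Control libraries with shKDM6B against Control, so the likeness of their values is not independent of it.

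Neither domain changed any of the 10 genes past the threshold when added to the shRNA. In Cat Rescue against shKDM6B cultures 0 of 10 were called, where 1 of all genes tested (0.00654%, Kcnip1) was. The values came closest to a difference for Hcrtr2, at -0.95 ± 0.42, and were -0.48 ± 0.42 for Galr1, 0.30 ± 0.35 for Vipr1, 0.03 ± 0.13 for Adcyap1r1, -0.04 ± 0.25 for Ramp3 and 0.44 ± 0.50 for Nts. In dCat Rescue against shKDM6B cultures 0 of 10 and 0 of all genes (0%) were called, with and without the block, while 214 genes with the block and 25 without it had an unadjusted p below 0.05, fewer than the 764 that chance alone gives. DESeq2 with the block also called 0 genes there. The log2 fold changes were -0.62 ± 0.42 for Galr1, 0.30 ± 0.35 for Vipr1, -0.25 ± 0.41 for Hcrtr2 and 0.44 ± 0.25 for Ramp3, which was higher in 5 of 5 pairs. Both comparisons share the shKDM6B libraries with the comparison by which the genes were known, so no p is given.

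The active domain was compared with the dead one directly, a comparison that shares no library with shKDM6B against Control, although the genes were chosen with earlier results of all groups known. None of the 10 genes passed the threshold: the adjusted p of edgeR's quasi-likelihood test over all 15284 genes was 0.9996 for each with the block and 1 without it, and 0 of the 10 had an unadjusted p below 0.05. Of all genes tested 1 (0.00654%, Kcnip1) was called with the block. An unadjusted p below 0.05 was found for 415 genes with the block and 37 without it, fewer than the 764 that chance alone gives. The log2 fold change of Cat Rescue against dCat Rescue was -0.48 for Ramp3, with a 95% interval from -1.01 to 0.0453, and Cat Rescue was the lower library in 5 of 5 pairs. It was 0.13 for Galr1 (-0.758 to 1.02), 0.00 for Vipr1 (-0.717 to 0.720) and 0.16 for Adcyap1r1 (-0.105 to 0.433). For Hcrtr2 it was -0.70 (-1.59 to 0.190), for Vipr2 -0.69 (-1.54 to 0.165) and for Nts 0.56 (-0.501 to 1.62), and Ramp2 had an interval from -1.0 to 0.368. A difference of 2-fold in 1 direction thus lies within or at the edge of the interval for Galr1, Vipr2, Hcrtr2, Ramp2, Ramp3 and Nts. For Ramp1 (-0.545 to 0.203) and Calcrl (-0.192 to 0.550) the intervals also span 0. That no p passed does not show that the domains act alike on these genes.

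Other genes of neuropeptide signalling were read from 6 lists of 153 genes, of which 86 were tested. These lists, too, were made with earlier results of the same libraries known, so the adjusted p-values of their genes, here and below, are a description. In shKDM6B against Control cultures 3 were higher and 3 lower with the block (6.98% of the 86, against 4.14% of all genes), 80 did not pass, and 0 passed without it. The median log2 fold change of the 86 was 0.06, against 0.01 over all genes tested. Crhr1, the type 1 receptor for corticotropin-releasing hormone and of the same receptor class as the VIP and PACAP receptors, was the single called gene of 9 sister receptors and partners. It rose to 20.2 ± 3.86 CPM in shKDM6B, against 10.2 ± 3.57 CPM in Control cultures (log2 fold change 1.00 ± 0.21, adjusted p = 0.0105 by edgeR), and stood at 20.98 ± 3.43 CPM in Cat Rescue and 17.6 ± 7.10 CPM in dCat Rescue cultures.

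Of the 27 tested genes of cyclic AMP signalling, 2 rose and 2 fell. Pde4a, a phosphodiesterase that breaks down cyclic AMP, rose to 61.2 ± 16.1 CPM in shKDM6B, against 38.6 ± 9.69 CPM in Control cultures (0.66 ± 0.10, adjusted p = 0.00141). Rapgef4, which encodes the cyclic AMP sensor Epac2, also rose, by 0.61 ± 0.11 (adjusted p = 0.00439). Prkar1a, a regulatory subunit of protein kinase A, fell to 383 ± 51.1 CPM in shKDM6B, against 510 ± 87.7 CPM in Control cultures (-0.40 ± 0.07, adjusted p = 0.00372). Adcy4, an adenylyl cyclase, fell to 0.641 ± 0.630 CPM, against 1.55 ± 0.694 CPM in Control cultures (-1.53 ± 0.41, adjusted p = 0.0451), and lost its call in 8 of 10 fits that left out 1 library. Among 16 genes of peptide processing and dense-core vesicles, Chgb, the vesicle protein chromogranin B, fell to 212 ± 63.3 CPM in shKDM6B, against 329 ± 71.2 CPM in Control cultures (-0.69 ± 0.14, adjusted p = 0.00983). Of the 16 other neuropeptide receptors and 12 other neuropeptides tested, 0 passed, with median log2 fold changes of 0.105 and 0.014. In the other 3 comparisons 0 of the 86 genes passed in edgeR.

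**Figure D4:**
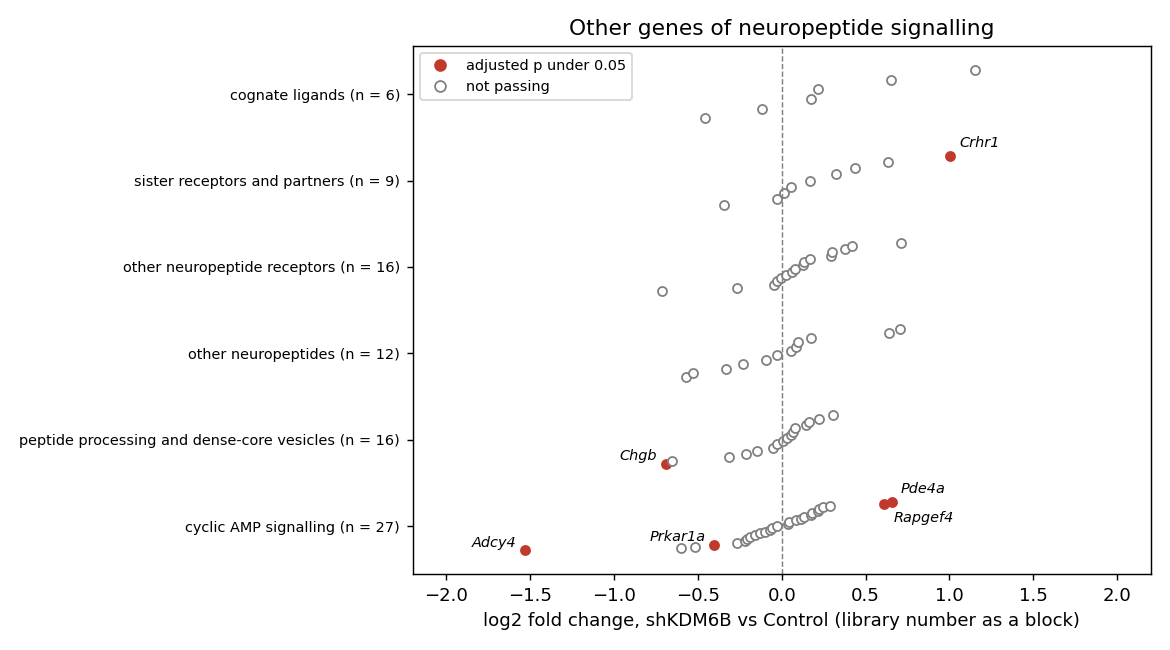
Log2 fold changes of 86 other genes of neuropeptide signalling in shKDM6B against Control cultures, by list, with the library number as a block; filled points passed an adjusted p of 0.05. The 6 called genes lie on both sides of 0, and the list of 6 ligands holds none of them.

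Of the 11 genes listed for ligands of these receptors or of their close relatives, 6 were tested and 0 passed. Adm, which encodes adrenomedullin, was the one abundant ligand, at 150 ± 101 CPM in Cat Rescue, 141 ± 84.0 CPM in dCat Rescue, 135 ± 82.4 CPM in shKDM6B and 120 ± 73.7 CPM in Control cultures (SD, n = 5 each). In shKDM6B against Control cultures its log2 fold change was 0.17 ± 0.12 (adjusted p = 0.596). Adcyap1, which encodes PACAP, averaged 0.538, 0.424, 0.369 and 0.233 CPM in Cat Rescue, dCat Rescue, shKDM6B and Control cultures. Calca, which encodes calcitonin and CGRP, Adm2, Iapp and Spx averaged at most 1.33 CPM in any group. Gal, Vip, Hcrt, Calcb and Galp were not tested for want of counts, and Gal averaged at most 0.164 CPM and Vip at most 0.0605 CPM. So the mRNA of galanin and VIP was near 0, and that of orexin was too low to be tested. Reads of their receptors were counted in the same cultures, although Hcrtr2 and Vipr2 were themselves low, at 0.485 and 0.440 CPM on average in Control libraries.

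Across the 20 libraries, with levels centred within each library number, the 7 pairs among the 6 genes past the threshold that moved the same way had Pearson r from 0.541 to 0.842 (Spearman 0.484 to 0.827). The 8 pairs that moved opposite ways had r from -0.910 to -0.580 (Spearman -0.820 to -0.553). These genes are known for their difference between shRNA and Control libraries, so correlation over the same libraries follows from that choice. The genes most like each member were sought among the 15284 genes tested, leaving out the 10 genes themselves and predicted or clone-named genes. The closest were Unc5d for Galr1 (r = 0.960, Spearman 0.895), Kcnk12 for Ramp3 (0.962, 0.892), Sema5b for Adcyap1r1 (0.946, 0.961), Chst1 for Nts (0.936, 0.774), Ankrd34a for Vipr1 (0.923, 0.817) and Ankrd45 for Hcrtr2 (0.886, 0.839). For Vipr2 the closest gene was Pecam1 (0.776, 0.681), an endothelial marker, on levels below 1 CPM. All these values come from the same 20 libraries, 15 of which carry the shRNA, and describe likeness only.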

How the data were processed

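The deposited table holds estimated counts of reads per gene, 1 column per library. Its name gives salmon, which estimates counts from reads assigned to transcripts, and the submitters' processing notes name mm10 as the build. Sources used here give no salmon version, annotation, filters or strandedness. Of the values, 7.03 to 11.2% per library were not whole, and all were rounded. The 10 genes and all lists were chosen with earlier results of these data known.

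Genes were kept with filterByExpr, which left 15284 of 24411, and libraries scaled with TMM. Groups were compared with edgeR 4.0.16 (R 4.3.3), quasi-likelihood and robust, two-sided, in 1 fit of 20 libraries with Benjamini-Hochberg adjustment over all genes tested. DESeq2 1.42.0 was an alternative. Residual degrees of freedom were 16, and 12 with the library number as a block. The biological coefficient of variation was 0.392 without and 0.179 with the block. The design had no block. What a number stands for is not in the labels, and the pairing comes from a check of the data. Deviations from the group means correlated in all 30 same-numbered pairs (r 0.361 to 0.881 across genes, median 0.608). The 120 pairs of different number and group had r from -0.581 to 0.572 (median -0.205), so the ranges overlap. Each of the 20 libraries correlated best with a library of its own number. So values with the block are printed, with counts without it beside them. On counts simulated for shKDM6B against Control from the fit with the block, the estimated fold changes followed those put in. Since the counts came from that same model, this does not show whether the block suits the data. The simulation held no change as large as that of Nts and none in genes as low as Vipr2, so it does not cover such values.

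Named beyond the 10 genes are list genes past the threshold, up to 8 per comparison, and the ligands; Ntsr1, Ntsr2, marker genes and Kcnip1 were named after their values were seen. Likeness used log2 CPM with a prior count of 1, centred within each number. Exon lengths come from GENCODE vM21.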

Additional observations from a re-analysis of the deposited data

Results flagged for a closer look

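In 8 of the 40 sets of 5 libraries formed by 10 genes and 4 groups, the highest or lowest library stood apart by Dixon's criterion at 95%. About 2 would be flagged by chance in independent sets of normally distributed values. Levels here were on the linear CPM scale and libraries of the same number deviated together, so the 2 counts are not a test. Of the 8 flagged sets, 7 concern the library numbered 4. Nts was at 10.76 CPM in dCat Rescue library 4, against 0.6427 CPM in the next library, and at 0.4134 CPM in Control library 4, against 0.1168 CPM in the next. Ramp1 was at 45.46 CPM in shKDM6B library 4, against 14.53 CPM in the next, and at 43.23 CPM in Control library 4, against 12.52 CPM. Ramp2 was at 8.163 CPM in dCat Rescue, 11.13 CPM in shKDM6B and 21.2 CPM in Control library 4, against 3.452, 3.387 and 3.421 CPM in the next libraries of the same groups. Ramp3 was at 13.51 CPM in Control library 3, its lowest, against 22.44 CPM in the nearest other Control library. The libraries numbered 4 also held the largest sums of astrocyte markers and the smallest of granule neuron markers, as given above, and the part of either in these values was not tested.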

How the results depend on the processing

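With the replicate block, shKDM6B against Control called 632 genes, 6 of the 10 genes described and 6 of the 86 other pathway genes, against 1, 0 and 0 without it. DESeq2 without the block called 64, 2 (Galr1 and Hcrtr2) and 0, and with it 944, 6 and 9. In edgeR with the block, DESeq2's size factors gave 626, 6 and 6, no filter on low counts 563, 6 and 5, leaving out the 4 libraries numbered 4 gave 990, 6 and 9, and numbers 1 to 3 alone 445, 4 (without Vipr1 and Hcrtr2) and 6. Leaving out 1 library gave 352 to 648 genes, 4 to 6 of the 10 and 5 to 8 pathway genes with the block, and 0 to 9 genes (9 without Control library 4), 0 and 0 without it. Galr1, Hcrtr2, Ramp3 and Nts were past the threshold in all 10 such fits with the block, while Adcyap1r1 was not in 7 and Vipr1 not in 2 of them; the cause was not tested. Cat Rescue against shKDM6B called 1 gene with the block, 23 in DESeq2 with it (1 pathway gene, Cck), 17 from numbers 1 to 3 and 0 to 2 with 1 library left out. Cat Rescue against dCat Rescue called 1, 3, 9 and 0 to 2, and dCat Rescue against shKDM6B 1 from numbers 1 to 3. None of the 10 genes was called in these 3 comparisons under any setting, and no called value changed its sign. Without dCat Rescue library 4, and without the block, the log2 fold change of Nts was -2.13 in dCat Rescue against shKDM6B and 2.27 in Cat Rescue against dCat Rescue. Vipr2, Nts and Hcrtr2 are limited by their low counts.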
